A study of Oryza sativa with 51 samples.

Results

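Histone H2B carrying a single ubiquitin (H2Bub1) was compared between Zhonghua11 rice seedlings under moderate drought and under normal water, over the 1395 regions of the authors' deposited table for that comparison. All rows of that table were taken, out of 2803 regions in the 3 region tables of the series. Plants at the 4-leaf stage stood in natural field soil that dried slowly, and moderate drought was reached at a relative soil water content of about 20%, while the controls were watered normally. Zhonghua11 is a japonica cultivar used here as the wild type, and neither condition carried a mutation or a transgene. Each condition had 3 libraries of chromatin immunoprecipitation (ChIP) with an antibody to H2Bub1, 3 input libraries and 3 RNA libraries. Severe drought, at about 10% relative soil water, added 3 RNA libraries and a further region table that shares its normal-water samples with this one. Another region table set osbzip46 mutants, in the Zhonghua11 background, against wild type under a drought treatment, from leaves at the 4-leaf stage with 3 H2Bub1 ChIP and 3 input libraries each.

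H2Bub1 is set by the E3 ligases HUB1 and HUB2 and removed by ubiquitin proteases. It lies mostly over the bodies of transcribed genes, downstream of the start site, where it accompanies the passage of RNA polymerase II. Soil drying raises abscisic acid (ABA), a hormone that binds PYL receptors, which then hold back the clade A PP2C phosphatases. SAPK kinases freed from these phosphatases activate bZIP transcription factors, and the phosphatase genes are themselves induced by the hormone.

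H2Bub1 was lower in moderate drought at most of the listed regions. In the authors' deposited table, 224 regions (16.1%) were higher in moderate drought and 1171 (83.9%) were lower. The gains were annotated to 221 genes and the losses to 1115 genes, 1335 genes in all. Each value is the authors' log2 concentration, 1 per condition with the replicates combined, and the change is moderate drought minus normal water. No spread between replicates can be read from these levels, so the H2Bub1 values are described and not tested anew. The smallest p of the table and its false discovery rate (FDR, the expected share of false calls) imply that about 12605 regions were tested. The listed regions are then 11.1% of those tested, 1.78% as gains and 9.29% as losses.

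The table holds only regions with an FDR of at most 0.0498 and an absolute log2 fold of at least 1. Its p-values imply that about 5164 regions, 41.0% of those tested, lay under an FDR of 0.05, and the listed ones are 27.0% of these. The balance of gains to losses is therefore that of regions past the fold limit. Just inside that limit, with an absolute fold of 1.0 to 1.1, stood 23 gains and 227 losses. With an FDR of 0.04 to 0.05 there were 13 gains and 35 losses. Regions outside either limit were not analysed here.

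The gains were fewer and larger. The median gain was 1.88 on the log2 scale, with a range of 1.01 to 6.81, and the median loss was −1.30, with a range of −7.48 to −1. A change of at least 2 was listed for 105 gains (46.9%) and 204 losses (17.4%). A change under 1.5 was listed for 78 gains (34.8%) and 764 losses (65.2%).

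Gains and losses began at different levels. Regions that gained had a median level of 6.31 in moderate drought, against 4.31 in normal water. Regions that lost had a median level of 5.71 in moderate drought, against 6.99 in normal water. A normal-water level of at least 7 was found for 1 gain and 582 losses. The largest changes sit at a lower limit of the scale. The lowest level in moderate drought, −0.20, was given to 12 regions, all losses, and the lowest in normal water, −0.06, to 19 regions, all gains. Apart from these, the largest gain was 5.57 and the largest loss was one of 5.72.

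**Figure D1:**
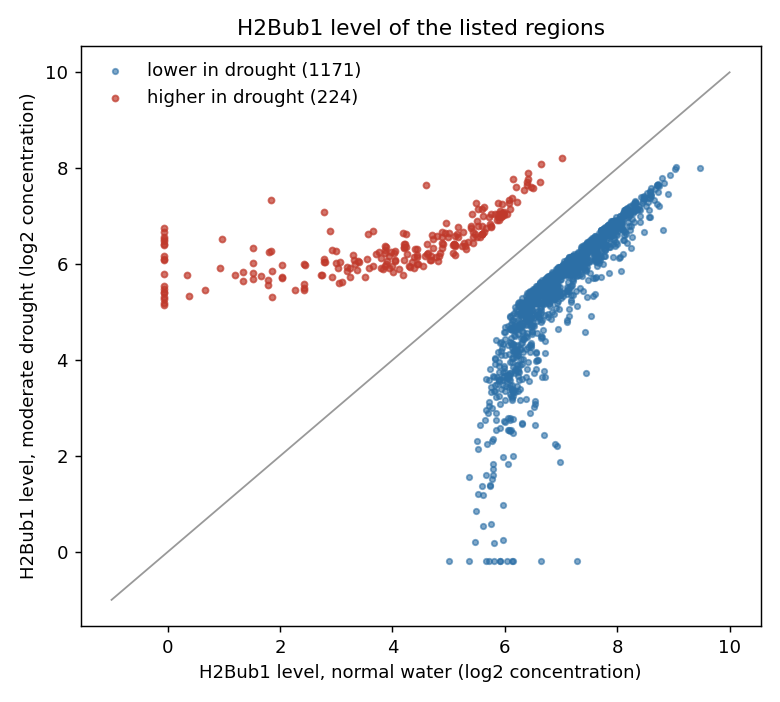
H2Bub1 level of each of the 1395 listed regions in moderate drought (vertical axis) against normal water (horizontal axis), both as the authors' log2 concentration. The line marks equal levels; the 224 gains lie above it and spread down to a normal-water level of −0.06, and the 1171 losses lie below it, most of them close to a change of −1.

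With the regions ranked by normal-water level and divided into 5 classes of about equal size, the share of gains dropped steeply from class 1 to class 5. Class 1 (−0.06 to 5.97) held 204 gains among 283 regions, class 2 (5.98 to 6.49) 16 among 276 and class 3 (6.50 to 7.06) 4 among 278. Classes 4 and 5, with 286 and 272 regions, held 0 gains. The change contains the normal-water level, so this order is partly built into the arithmetic. With 3 such classes of the mean level of both conditions, gains were 30.9% of the low class, 13.5% of the middle class and 3.68% of the high class.

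Most regions of both directions lay inside genes. Of the 1395 regions, each 500 bases wide, 1140 (81.7%) lay wholly within the transcript that the authors' deposited table annotates them to. The share was 82.1% for gains (184 regions) and 81.6% for losses (956 regions). The table labels 1194 regions as promoter, since its label reaches 3 kb to either side of a start, and 1034 of these lay wholly inside the transcript. Regions upstream of a start numbered 122, of which 18 were gains and 104 losses. By label, 420 regions were promoter within 1 kb (133 gains, 287 losses), 554 promoter at 1 to 2 kb (57 gains, 497 losses) and 220 promoter at 2 to 3 kb (17 gains, 203 losses). Exons held 85 regions (9 gains, 76 losses), introns 60 (1 gain, 59 losses) and distal intergenic sequence 31 (4 gains, 27 losses).

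The gains stood closer to the transcription start. Their median distance from the start was 752 bases, against 1404 bases for the losses. Gains were 53.1% of the regions that began up to 500 bases downstream (51 of 96), 25.6% at 500 to 1000 bases (64 of 250) and 13.5% at 1000 to 1500 bases (42 of 310). At 1500 to 2000 bases 5.00% were gains (11 of 220), at 2000 to 3000 bases 6.97% (14 of 201), and beyond 3000 bases 8.81% (14 of 159). Of the 37 regions that lay across a start, 27.0% were gains.

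**Figure D2:**
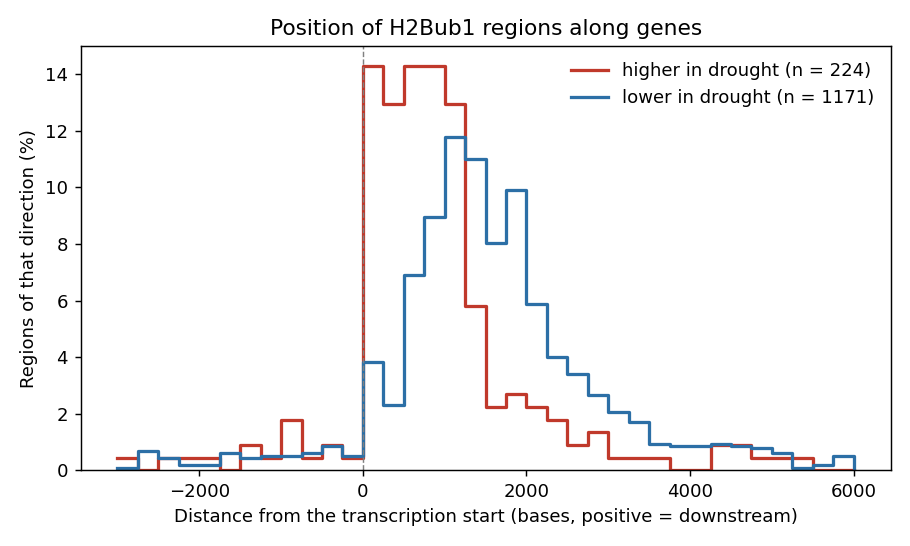
Share of the 224 gains (red) and of the 1171 losses (blue) in each 250-base step of distance from the transcription start, shown from 3000 bases upstream to 6000 bases downstream, which holds 217 gains and 1108 losses. Gains crowd the first 1000 bases after the start, and losses peak farther in.

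This order by distance was also present among regions of like mean level. In the low class of mean level, gains were 54.8% of regions within 1000 bases downstream and 22.8% at 1000 to 2000 bases. In the middle class the shares were 27.1% and 10.5%, and in the high class 9.26% and 1.79%. Measured along the transcript, regions inside it were centred at a median of 29.3% of its length for gains (quartiles 19.1% and 42.7%) and 38.4% for losses (quartiles 28.4% and 49.7%). The transcripts holding gains were shorter, with a median of 3836.5 bases against 4625 bases for those holding losses.

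All 12 chromosomes held regions in both directions, from 67 regions on chromosome 12 to 214 on chromosome 3. The share of gains ran from 7.46% on chromosome 12 to 26.2% on chromosome 5. No test was made of these shares.

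Most genes had a single region. Of the 1335 genes, 49 had more than 1, namely 39 with 2 regions, 9 with 3 and 1 with 4. In 46 of the 49 all regions were losses, in 2 all were gains, and in 1 there was a region of each direction. LOC_Os01g11054, with the most regions, had 4 losses between −2.46 and −1.07, spread from base 5900639 to base 5907315 of chromosome 1. LOC_Os02g54254 had 3 gains of 3.03, 4.19 and 4.83, spread from base 33259205 to base 33264233 of chromosome 2. These genes were chosen after their values were seen. LOC_Os01g58220 was the gene with both directions, and its regions lie in different gene models. The loss of −1.31 lies inside it, whereas the gain of 2.64 lies in exon 3 of its neighbour LOC_Os01g58194.

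The annotated gene was thus not always the gene under the region. By the gene models of the RNA tables, 1300 regions overlapped a model and 95 overlapped none. The model with the largest overlap was the annotated gene in 1205 regions and another gene in 95. Positions are as the files give them, on a genome build that the sources used here do not name.

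The RNA of the same genes was compared to see whether it moved with the mark. RNA is given as TPM, a transcript's length-scaled share of its library, and 20642 genes were tested with limma on log2(TPM + 1), a scale that understates changes of low genes. A gene is called higher or lower at a Benjamini-Hochberg adjusted p under 0.05, and rose or fell is written only of called genes. Groups without overlap were common. Over all tested genes, every moderate drought library was above every normal one in 48.3% and below in 24.7%. The labels do not say that replicates came from separate plants, so the p-values speak only to the variation among these libraries, which may be technical. In bulk samples, fewer cells of a type and less RNA per cell cannot be told apart, and the same holds for ChIP.

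The 9 RNA libraries had 19185 to 20012 genes at 1 TPM or more and an implied 8.30 to 10.7 Gb of aligned bases. Libraries correlated at 0.9885 to 0.9924 within moderate drought, at 0.9902 to 0.9928 within normal water and at 0.8665 to 0.8978 between them. Severe drought replicate 3, which enters the shared error of the fit, correlated at 0.9548 and 0.9441 with replicates 1 and 2 of its group. Those 2 correlated at 0.9928. The labels name no tissue for these samples. Leaf genes were abundant, with the Rubisco small subunit gene LOC_Os12g17600 at 2099, 1667 and 2211 TPM in moderate drought, against 9174, 8834 and 6669 TPM in normal water. CAB2R (LOC_Os01g41710) had 1376, 1220 and 1600 TPM in moderate drought, against 5781, 5250 and 4006 TPM in normal water. RCA (LOC_Os11g47970) had 2207, 1706 and 2359 TPM in moderate drought, against 1963, 2175 and 1940 TPM in normal water. LOC_Os12g17600 and CAB2R were called lower, and RCA was not called. Of 3 root markers, the silicon channel gene Lsi1 had 11.1 to 13.1 TPM in moderate drought against 17.4 to 18.7 TPM in normal water, the iron transporter gene IRT1 0.212 to 0.387 against 1.45 to 1.84 TPM, and the sodium transporter gene HKT2;1 1.88 to 2.53 against 0.0877 to 0.146 TPM. Of 2 meristem markers, FON1 had 7.18 to 8.55 TPM in moderate drought against 15.0 to 16.6 TPM in normal water, and OSH1 was at 0 in all of these libraries. Lsi1, IRT1 and FON1 were called lower and HKT2;1 higher, and Lsi1 and FON1 stood near the median tested gene (14.2 TPM in moderate drought, 11.7 TPM in normal water). The part of cell composition in the H2Bub1 changes was not tested.

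Genes that gained H2Bub1 had higher RNA in most cases. Of the 221 gaining genes, 212 passed the filter on low values and 185 of them (87.3%) rose, 1 was called lower and 26 were not called. Among all tested genes 58.3% were called, 39.4% higher and 18.9% lower. The median RNA change of the 212 genes was 1.41 on the log2 scale, against 0.20 over all tested genes, and their median level was 22.9 TPM in moderate drought against 8.39 TPM in normal water. A rise of at least 1 was called in 147 of them (69.3%), against 12.2% of all tested genes. The other 9 gaining genes did not pass the filter, and 9 of the 212 that passed averaged under 1 TPM in normal water.

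Genes that lost H2Bub1 were divided, with falls more frequent and rises less frequent than over all tested genes. Of the 1115 losing genes, 1051 passed the filter and 473 of them (45.0%) fell, 139 (13.2%) rose and 439 were not called. Over all tested genes 18.9% were lower and 39.4% higher. The median RNA change was −0.27, and the median level was 15.9 TPM in moderate drought against 18.9 TPM in normal water. A fall of at least 1 was called in 158 losing genes (15.0%), against 7.19% of all tested genes. A rise of at least 1 was called in 17 (1.62%), against 12.2% of all tested genes.

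The scaling of the RNA moves these shares. After quantile normalization, 27.6% of all tested genes were higher and 28.0% lower. Of the gaining genes 178 were then higher and 6 lower, with a median of 1.18, and of the losing genes 63 were higher and 628 lower, with a median of −0.48. By the gene model with the largest overlap, 179 of 200 gaining genes were higher and 0 lower, and 467 of 1029 losing genes were lower and 129 higher. The single gaining gene called lower was LOC_Os01g58220, whose gain lies in LOC_Os01g58194, and that call ended without any one of the 6 libraries compared.

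**Figure D3:**
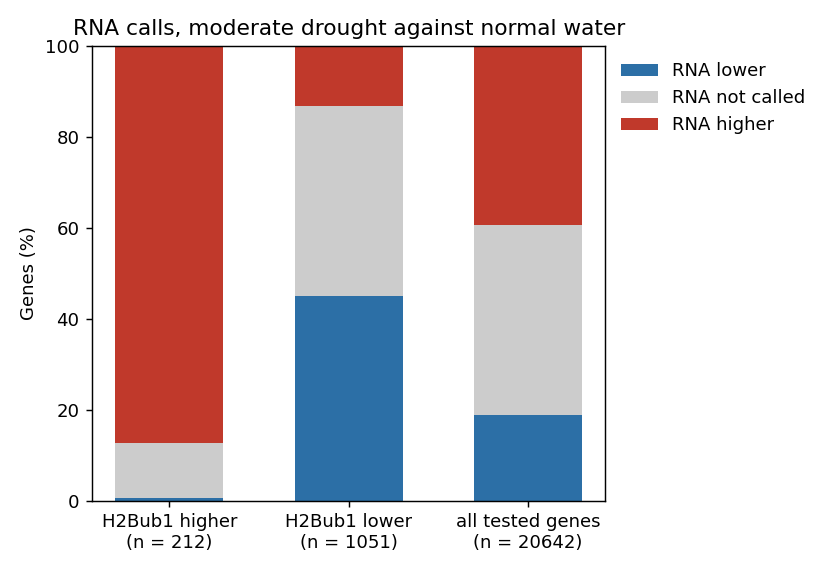
Percent of genes called higher (red), lower (blue) or not called (grey) in RNA, moderate drought against normal water, for the 212 tested genes that gained H2Bub1, the 1051 that lost it and all 20642 tested genes. The higher share is 87.3% among gaining genes, 13.2% among losing genes and 39.4% over all tested genes.

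Larger losses went with a larger share of falling RNA. Among genes with a region losing 1 to 1.25, 35.8% were lower in RNA, and the share was 45.9% at 1.25 to 1.5, 50.8% at 1.5 to 2, 58.3% at 2 to 3 and 69.6% above 3. The gains showed no such order, with 88.1%, 87.9%, 95.1%, 83.3% and 83.3% higher in RNA over the same steps. Across genes with a single region, Spearman's rho between the H2Bub1 change and the RNA change was 0.525 over all 1215 genes, 0.118 over 209 gaining genes and 0.232 over 1006 losing genes. These are descriptions across genes, which share the same libraries, and the pooled value spans a gap between gains and losses that the fold limit leaves empty.

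**Figure D4:**
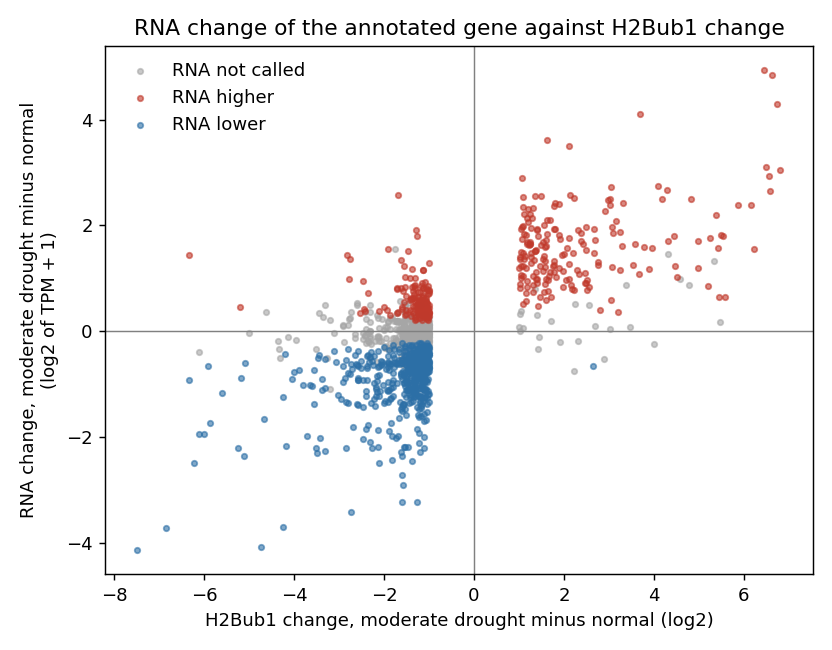
RNA change of the annotated gene (vertical axis, log2 of TPM + 1) against the H2Bub1 change of its region (horizontal axis, log2), both as moderate drought minus normal water, coloured by the RNA call. Gains lie almost wholly at higher RNA, losses spread to both sides of 0, and no region has a change between −1 and 1.

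The losing genes with higher RNA had nearly the same loss as those not called. The median loss was −1.23 over 143 regions of genes with higher RNA, −1.40 over 495 regions of genes with lower RNA and −1.22 over 467 regions of genes not called. The region lay wholly inside the transcript in 81.8%, 89.3% and 83.9% of these. LOC_Os06g30950, the losing gene with the largest RNA rise and chosen after its values were seen, lost 1.68 of H2Bub1 in its 3′ UTR, with levels of 4.55 in moderate drought against 6.23 in normal water. Its RNA was 23.9, 24.6 and 25.8 TPM in moderate drought, against 3.58, 2.89 and 3.46 TPM in normal water.

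Among the components of ABA signalling, 3 of 9 phosphatase genes and 1 bZIP gene lay under a gain, and 1 kinase gene under a loss. The files pair no names with the genes, so names are those listed here for each identifier. In a list of 87 genes of ABA signalling, drought response, photosynthesis, the clock and reference genes, 4 were annotated to a region and 1 more lay under one. Of the 87 genes, 82 were tested in RNA. Among all 20642 tested genes, 212 were annotated to a gain and 1051 to a loss, and by annotation 2 of the 9 phosphatase genes had a region. By the gene model with the largest overlap, the counts were 200 and 1029 genes, and 3 of the 9. Whether the list holds more regions than other genes do was not tested.

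PP2C51 (LOC_Os05g49730), a phosphatase that holds back the ABA response, had one of the largest gains. Its region, at bases 28524702 to 28525201 of chromosome 5 and 824 bases downstream of the start, had a level of 6.39 in moderate drought against −0.06 in normal water, a change of 6.45 (FDR 2.41e-08 in the authors' deposited table). PP2C51 RNA was 49.5, 52.4 and 46.2 TPM in moderate drought, against 0.595, 0.427 and 0.937 TPM in normal water. The groups did not overlap, and the RNA rose by 4.94 ± 0.32 (SE, log2; limma adjusted p = 6.42e-06). Here and below, such a lack of overlap stands against 48.3% of all tested genes with moderate drought higher.

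PP2C30 (LOC_Os03g16170), a phosphatase of the same clade, gained 4.10 at bases 8921733 to 8922232 of chromosome 3, with levels of 5.76 in moderate drought against 1.66 in normal water (FDR 0.00127 in the authors' deposited table). PP2C30 RNA was 168, 157 and 150 TPM in moderate drought, against 19.3, 26.4 and 23.3 TPM in normal water. Every moderate drought library was above every normal one, and the RNA rose by 2.74 ± 0.19 (limma adjusted p = 9.41e-06).

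PP2C09 (LOC_Os01g62760), also of clade A, lay under a gain that the table annotates to its neighbour LOC_Os01g62770, at −762 bases from that gene's start. The region, at bases 36344852 to 36345351 of chromosome 1, had levels of 6.38 in moderate drought against 5.29 in normal water. Its gain of 1.09 was near both limits of the table (FDR 0.0423 in the authors' deposited table). PP2C09 RNA was 294, 270 and 301 TPM in moderate drought, against 67.6, 75.5 and 85.8 TPM in normal water. The groups did not overlap and PP2C09 rose by 1.91 ± 0.11 (limma adjusted p = 3.21e-06). The annotated neighbour LOC_Os01g62770 rose as well, by 2.54 ± 0.24.

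bZIP23 (LOC_Os02g52780), a transcription factor that activates ABA-responsive genes, gained 1.49 at bases 32280076 to 32280575 of chromosome 2. Its region stood at 7.90 in moderate drought against 6.41 in normal water, so it was already well marked in normal water (FDR 1.08e-09 in the authors' deposited table). bZIP23 RNA was 100.4, 79.9 and 96.6 TPM in moderate drought, against 12.8, 13.2 and 18.9 TPM in normal water. The groups did not overlap and the RNA rose by 2.56 ± 0.16 (limma adjusted p = 5.5e-06).

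SAPK1 (LOC_Os03g27280), a kinase of the SnRK2 family, was the list gene with a loss. Its region, at bases 15630361 to 15630860 of chromosome 3, had 5.18 in moderate drought against 6.23 in normal water, a change of −1.05 near both limits of the table (FDR 0.0449 in the authors' deposited table). SAPK1 RNA was 31.7, 36.8 and 37.4 TPM in moderate drought, against 42.6, 40.2 and 44.1 TPM in normal water. All moderate drought libraries were below all normal ones, as in 24.7% of all tested genes. The RNA change was −0.26 ± 0.40 (limma adjusted p = 0.608). In a fit of the 6 compared libraries alone the adjusted p was 0.0219, and severe drought replicate 3, which enters the shared error, stood at 110.8 TPM.

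**Figure D5:**
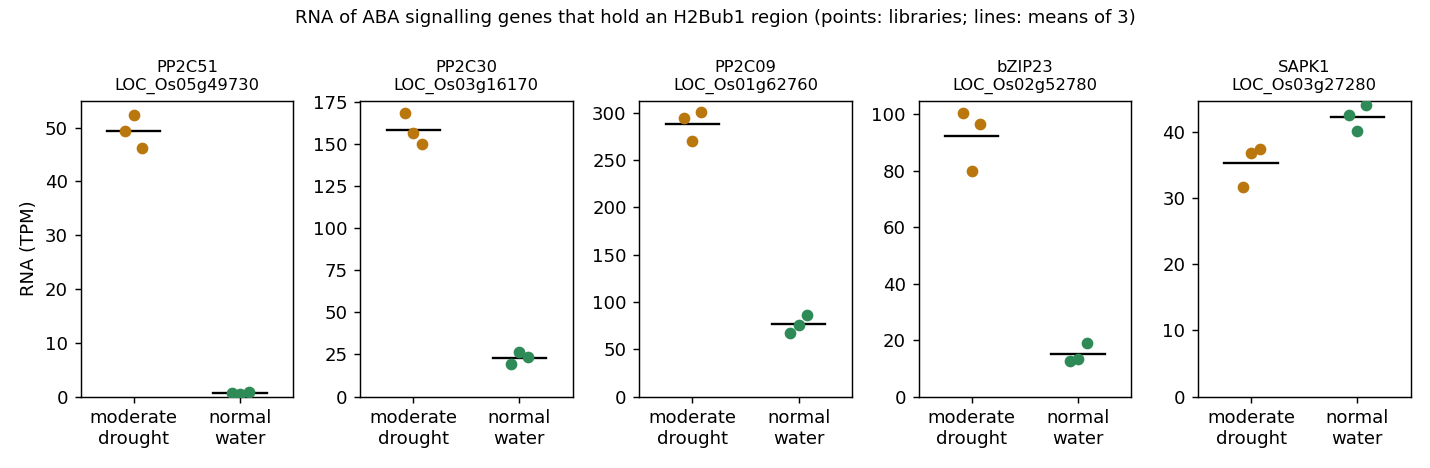
RNA (TPM) of the 5 listed ABA signalling genes that lie under an H2Bub1 region, with each point a library and each line the mean of 3, moderate drought left of normal water. PP2C51, PP2C30, PP2C09 and bZIP23 are higher in every moderate drought library, and SAPK1 is lower in every one.

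The other ABA genes held no listed region, and their RNA calls are to be read against 39.4% of all tested genes higher and 18.9% lower. Of 9 clade A phosphatase genes, 8 rose in RNA and 0 fell, with a median of 1.91, and 3 of them lay under a region. PP2C68 (LOC_Os09g15670) and PP2C49 (LOC_Os05g38290) rose by 3.58 ± 0.30 and 3.29 ± 0.18 without a listed region. Of 14 tested kinase and receptor genes 4 rose and 6 fell (median −0.28), and SAPK1 was the 1 with a region. All 5 tested bZIP genes rose (median 1.64), 1 with a region, though TRAB1 (LOC_Os08g36790) and bZIP72 (LOC_Os09g28310) were not called after quantile normalization (limma adjusted p = 0.0733 and 0.199). The 7 genes that make or degrade ABA held no region, with 3 higher and 2 lower in RNA (median −0.07). Of 10 tested drought effector genes, such as dehydrins, 7 rose and 1 fell (median 3.92), and none held a listed region.

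The remaining lists held no region either, and their calls stand against the same 39.4% higher and 18.9% lower. In RNA, 2 of 9 stress factor genes rose and 1 fell (median 0.61), 0 of 13 photosynthesis genes rose and 4 fell (median −0.96), and 0 of 9 clock genes rose and 7 fell (median −0.70). All 3 reference genes rose (median 1.51). The 9 photosynthesis genes not called ranged from −1.19 for CP26 (limma adjusted p = 0.0537) to 0.06 for CAB1R (0.855), so not called does not mean unchanged. Severe drought replicate 3, which enters the shared error, stood at 307 TPM for CP26, against 1080 and 1266 TPM in replicates 1 and 2.

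Of the genes of the enzymes that set the mark, HUB1 was not called in RNA and HUB2 was called slightly lower. HUB1 (LOC_Os04g46450) had 48.6, 42.7 and 51.9 TPM in moderate drought, against 45.8, 47.7 and 55.3 TPM in normal water, overlapping groups with a change of −0.06 ± 0.10 (limma adjusted p = 0.67). HUB2 (LOC_Os10g41590) had 45.0, 43.3 and 49.4 TPM in moderate drought, against 55.0, 53.6 and 58.4 TPM in normal water. HUB2 fell by 0.27 ± 0.08 (limma adjusted p = 0.0194), a call that ended without moderate drought replicate 1 or 2 or without normal replicate 1 or 3 (adjusted p = 0.0644, 0.0678, 0.0504 and 0.0608). Quantile normalization called both lower, HUB1 at −0.25 (limma adjusted p = 0.0314) and HUB2 at −0.47 (limma adjusted p = 0.000582). MODD (LOC_Os03g11550), a repressor that promotes the loss of the factor bZIP46, had 10.4, 11.4 and 10.1 TPM in moderate drought, against 5.26, 6.46 and 5.53 TPM in normal water. Its groups did not overlap, with moderate drought higher, as in 48.3% of all tested genes (0.79 ± 0.32, limma adjusted p = 0.0625; 0.000134 in the fit of 6 libraries). None of the 3 genes held a listed region.

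The 8 largest gains were all at the lowest normal-water level of −0.06, and all of the annotated genes rose in RNA. Of all gaining genes that were tested 87.3% rose, and of all tested genes 39.4%, so this is not particular to the largest gains. After LOC_Os01g58194 (6.81) came LOC_Os06g13720 (6.74), LOC_Os05g31020 (6.63), LOC_Os04g54830 (6.59), LOC_Os01g62780 (6.55), LOC_Os06g45710 (6.48), PP2C51 and LOC_Os06g22070 (6.22). LOC_Os01g58194 RNA was 49.4, 58.5 and 52.8 TPM in moderate drought, against 5.12, 5.64 and 6.14 TPM in normal water, a rise of 3.04 ± 0.25. LOC_Os05g31020 RNA was 106.4, 153.6 and 96.5 TPM in moderate drought, against 2.54, 3.28 and 3.46 TPM in normal water, a rise of 4.85 ± 0.43. LOC_Os06g13720 RNA was 39.9, 46.2 and 29.6 TPM in moderate drought, against 0.870, 0.862 and 1.27 TPM in normal water, a rise of 4.29 ± 0.42. The groups did not overlap in any of these, as in 48.3% of all tested genes with moderate drought higher.

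Some of these regions lay off their annotated gene. The gain annotated to LOC_Os01g62780 lies in no gene model, at −3269 bases from that gene's start. The gain annotated to LOC_Os06g22070 lies inside LOC_Os06g22060, which holds a further gain of 1.62, with levels of 7.14 in moderate drought against 5.52 in normal water. LOC_Os06g22060 RNA was 142.4, 134.6 and 140.7 TPM in moderate drought, against 10.4, 11.3 and 9.82 TPM in normal water, a rise of 3.61 ± 0.08. LOC_Os06g22070 rose by 1.55 ± 0.18.

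The 8 largest losses were all at the lowest moderate drought level of −0.20, and their RNA went more than one way. LOC_Os03g14915 lost the most, −7.48, in a region across its start, with a level of 7.28 in normal water. Only 24 of the 500 bases of that region lie in the gene model, and the rest lie upstream. LOC_Os03g14915 RNA was 3.34, 2.07 and 3.46 TPM in moderate drought, against 70.8, 62.8 and 70.9 TPM in normal water, and fell by 4.14 ± 0.21. LOC_Os08g39830, with a loss of −6.85, had 1.71, 0.899 and 1.24 TPM in moderate drought, against 30.4, 27.5 and 28.2 TPM in normal water, and fell by 3.72 ± 0.19. In both genes the groups stood far apart. LOC_Os02g52280 held 2 of the 8 (−6.12 and −6.00) and fell by 1.94 ± 0.17, and LOC_Os05g37200 (−6.33) fell by 0.92 ± 0.23.

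LOC_Os07g27810 went the other way, with H2Bub1 lower by 6.34 and RNA higher. Its region lies wholly inside the gene, 1648 bases downstream of the start, with −0.20 in moderate drought against 6.14 in normal water. LOC_Os07g27810 RNA was 28.1, 31.1 and 25.7 TPM in moderate drought, against 9.55, 10.3 and 9.59 TPM in normal water, and rose by 1.43 ± 0.18 (limma adjusted p = 0.000206). LOC_Os06g12280 (−6.11) was not called, at −0.39 ± 0.18. The loss of −6.23 annotated to LOC_Os02g53510 lies in exon 17 of 23 of LOC_Os02g53520, whose RNA was 6.54, 6.54 and 6.59 TPM in moderate drought, against 6.88, 6.31 and 6.80 TPM in normal water (−0.02 ± 0.10, not called). LOC_Os02g53510 itself fell by 2.50 ± 0.16.

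Genes with the largest RNA changes had regions of varied size. Of the gaining genes, PP2C51, LOC_Os05g31020, LOC_Os06g13720, LOC_Os01g45640 and LOC_Os06g22060 had the largest RNA changes. LOC_Os01g45640 gained 3.69 of H2Bub1, and its RNA was 322.0, 427.7 and 305.4 TPM in moderate drought, against 9.87, 19.1 and 37.4 TPM in normal water (4.10 ± 0.45). Of the losing genes, LOC_Os03g14915 and LOC_Os08g39830 were joined by LOC_Os12g40920, LOC_Os01g66890 and LOC_Os07g37230. LOC_Os12g40920 lost 4.73 of H2Bub1, and its RNA was 13.8, 10.1 and 15.6 TPM in moderate drought, against 247.0, 238.8 and 223.3 TPM in normal water (−4.09 ± 0.16). LOC_Os01g66890 changed by −4.25 in H2Bub1 and −3.71 ± 0.18 in RNA, and LOC_Os07g37230 by −2.73 in H2Bub1 and −3.42 ± 0.41 in RNA.

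The 2 smallest p-values of the authors' deposited table were both gains, in genes chosen after their values were seen. LOC_Os01g64300 had 7.33 in moderate drought against 1.84 in normal water (FDR 1.5e-20), and its RNA rose by 1.82 ± 0.33. LOC_Os01g46970 had 7.64 in moderate drought against 4.59 in normal water (FDR 2.7e-19), and its RNA rose by 2.73 ± 0.13. LOC_Os02g54254, with 3 gains, had 29.8, 65.0 and 32.7 TPM in moderate drought, against 5.00, 5.79 and 8.20 TPM in normal water (2.50 ± 0.76, limma adjusted p = 0.0202). That call ended without moderate drought replicate 2 or without normal replicate 1 or 2 (adjusted p = 0.0720, 0.0624 and 0.0569). LOC_Os01g11054, with 4 losses, had 85.5, 76.0 and 86.4 TPM in moderate drought, against 152.4, 153.9 and 168.8 TPM in normal water, and fell by 0.93 ± 0.16.

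Part of the moderate drought regions met a region of the severe drought table. An overlap of at least 1 base was found for 263 regions, 18.9% of the 1395 here and 29.7% of the 886 in the severe table. Both tables use the same normal-water samples, so their values are set side by side only. The 263 were 245 losses in both, 15 gains in both and 3 gains in moderate drought that met a loss in severe drought. The overlap took in 8.04% of the gains and 20.9% of the losses of moderate drought. The losses had a median of −1.41 in moderate drought and −1.32 in severe drought.

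bZIP23 was among the 3 that differed in direction. The level at bZIP23 was 7.90 in moderate drought and 5.34 in severe drought, with normal-water levels of 6.41 and 6.51, giving changes of 1.49 and −1.17. LOC_Os01g32780 had changes of 1.21 in moderate and −2.60 in severe drought, and LOC_Os02g45690 had 1.02 and −3.38. The RNA of all 3 genes was higher in moderate drought, by 2.56, 2.32 and 0.82 on the log2 scale, and also in severe drought, by 2.72, 2.77 and 0.96 (limma adjusted p under 0.05 for each), though the model of LOC_Os02g45690 overlaps another gene. Gains in both tables included LOC_Os01g64300, with 5.49 in moderate and 3.44 in severe drought. LOC_Os06g16290 gained 4.29 and 3.56, and LOC_Os03g10620 gained 3.58 and 6.16. In the same order, the normal-water levels were 1.84 and 3.11, 2.79 and 2.79, and 2.42 and −0.06. The paired regions shared only 200, 431 and 291 bases. The gain of 6.16 thus starts from −0.06, the lowest normal-water level of the moderate drought table, so its size is not comparable with 3.58. Apart from bZIP23, these genes were chosen after their values were seen. Whether the changes differ between moderate and severe drought was not tested.

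Few regions met the table of osbzip46 mutant plants against wild type under drought. That table holds 522 regions, of which 82.8% are higher in the mutant and 9 have an FDR under 0.05. It overlapped 28 of the moderate drought regions, 26 losses and 2 gains. Of the losses 24 were higher in the mutant and 2 lower, and both gains were higher in the mutant. Only 1 of the 28 had an FDR under 0.05 in the mutant comparison, so these directions are mostly of regions not called there.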

How the data were processed

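Per the file headers, the authors' deposited region table gives a log2 concentration per condition, a log2 fold, a p-value and an FDR for each region, and the method that combined the replicates is not named in the sources. The deposited fold equalled the difference of both levels within 0.01. The deposited RNA tables give TPM, FPKM and coverage per gene, per the file headers. The submitters' processing notes name Bowtie2 2.3.4, MACS2 2.1.1, HISAT2 2.0.5 and DESeq2 1.20.0 without saying what each did. The number of regions tested was inferred from the smallest p-value and its FDR. The ratio of coverage to FPKM gave the implied depth. The ChIP and input libraries were not analysed one by one here.

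A gene was tested, two-sided, where 3 or more of 9 libraries reached 1 TPM, on log2(TPM + 1) in 1 fit over all 9 with limma 3.58.1 (trend and robust settings, statmod 1.5.0) in R 4.3.3. The fit was tested on simulated data. Samples were grouped by the labels. Same-numbered libraries deviated together at r of −0.059, 0.041 and 0.024, so numbers were not taken as pairs.

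Members and gene lists were chosen with earlier results of these data known. Named are the 8 largest changes per direction, list genes under a region, the 5 largest RNA changes per direction (at least 5 TPM in the higher condition, no overlap between groups), genes with both directions, HUB1, HUB2 and MODD. Alternatives covered scaling, filter, pseudocount, samples, thresholds, overlap and annotation.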

Additional observations from a re-analysis of the deposited data

How the results depend on the processing

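The count of gaining genes with higher RNA lay between 171 and 194 under every alternative tried, and of losing genes with lower RNA between 400 and 628. Losing genes with higher RNA numbered 139, and 70 after median-of-ratios scaling or 63 after quantile normalization. Subtracting the table's median change of −1.22, which by construction splits the regions evenly and says nothing of their balance, gave 691 gains and 686 losses in place of 224 and 1171. An FDR under 0.01 left 150 and 909. With a replicate block, which the numbering does not support, 187 gaining genes were higher, 455 losing genes lower and 128 higher, and 11781 genes changed in place of 12040. Leaving out 1 library gave 179 to 183 gaining genes higher, 400 to 438 losing genes lower, 102 to 138 losing genes higher and 9774 to 10768 changed genes. Asking for an overlap of 50% of both regions left 214 of 263 regions shared with severe drought. Without severe drought replicate 3, an alternative chosen after seeing the data along with the largest-overlap gene model and the removal of regions at the lowest level, 194 gaining genes were higher and 556 losing genes lower. The count of changed genes was then 14259, with 172 losing genes higher. In the fit of the 6 compared libraries alone 13781 genes changed.

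Of 34 named genes under 13 settings, 414 of 442 values stayed on the same side of the threshold, 15 lost and 10 gained the call, and 3 turned direction near 0. These were LOC_Os02g53520, at 0.0010 without normal replicate 1, and HUB1, at 0.0215 without moderate drought replicate 2 and 0.0242 without normal replicate 3. With 1 library left out, LOC_Os02g53520 ranged between −0.053 and 0.0010 and HUB1 between −0.1165 and 0.0242. LOC_Os01g58220, called lower at an adjusted p of 0.0457, lost that call without any one of the 6 libraries, with the block and without the filter (0.0584 to 0.145). The cause was not tested. The ChIP depth is unknown, and no error can be given for a single H2Bub1 level.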
